A study of Mus musculus with 2 samples.

Results

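The genes described here encode the machinery that nucleates, elongates, bundles and remodels actin filaments, and the unconventional myosins that move on them, in mouse splenic dendritic cells (DCs) with and without CD8α at the surface. They were chosen by name. A gene was taken where its symbol starts with Myo, Arpc, Actr, Wasf, Wipf, Diaph, Fmnl, Tpm, Cfl or Coro followed by a digit, or is Was, Wasl, Vasp, Evl, Enah, Lsp1, Fscn1 or Arpin, and where the array has a probe set for that gene alone. This gave 66 genes of the 18194 with such a probe set. Of 78 RefSeq symbols that fit the rule, the other 12, among them Actr2, Arpc1b, Arpc3 and Fmnl3, were not analysed here. The rule also takes 4 actin-related proteins that do not nucleate actin, Actr1a, Actr5, Actr6 and Actr8.

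Branched actin networks are started by the Arp2/3 complex once a WASP or WAVE protein has activated it below the membrane. Formins and Ena/VASP proteins lengthen unbranched filaments, fascin bundles them, and coronins and cofilin take networks apart. DCs use this machinery to migrate, to take up antigen by phagocytosis and macropinocytosis, and to hold T cells at the immunological synapse.

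Both populations came from C57BL/6 mice in which B16 melanoma cells, a mouse tumour line, had been injected and secreted Flt3 ligand, a cytokine that expands DCs in vivo. After 10 to 12 days, DCs were enriched from the spleen on magnetic columns, and CD11c+ cells lacking CD3 and B220 were sorted into CD8α+ and CD8α- fractions. Neither population was stimulated, and total RNA of each was hybridised to 1 Affymetrix array. All values are therefore from tumour-bearing, Flt3 ligand-expanded animals. The age of the mice and how many were pooled is not given in the sources used here. No value has a replicate, no test was possible, and differences are given by size with a threshold of 2-fold. The number of arrays limits the precision, and a difference cannot be told apart from variation between mice, sorts or hybridisations. In RNA of a whole population, fewer cells that express a gene and less RNA per cell cannot be told apart either.

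Values are log2 signals, and a difference is the CD8+ value minus the CD8- value. A gene with several probe sets is represented by that with the highest mean of both columns. It was taken as measured if its higher value reached 3.85, the median of all values, used here as a floor near background. The median signal was 3.86 on the CD8+ array and 3.83 on the other. By 2-fold or more, CD8+ DCs exceeded CD8- DCs in 8 of 9 CD8+ DC markers, and the reverse held for 8 of 9 CD8- DC markers. The CD8+ DC markers include Cd8a, on whose product the cells were sorted. Under 2-fold were Batf3 of the CD8+ DC markers (9.56 in CD8+ and 8.90 in CD8- DCs) and Mgl2 of the others (3.14 and 4.12). The pan-DC genes Itgax, Flt3, Zbtb46, H2-Ab1, Cd74 and Ptprc were all above the floor on both arrays. Among markers of other cells, 4 of 6 melanoma genes, 4 of 5 neutrophil genes, 3 of 5 T cell genes and 2 of 5 platelet genes were below the floor on both arrays. Of all 18194 genes, 6790 were also below it on both arrays. Some markers were above the floor. The T cell genes Cd3e (4.76 in CD8+ and 4.90 in CD8- DCs) and Cd5 (3.95 and 4.87) were above it on both arrays. Of 6 B cell genes 3 were measured: Cd79b was at 3.28 in CD8+ and 6.59 in CD8- DCs, Ms4a1 at 5.74 and 4.99, and Ighm at 9.83 and 9.93. The macrophage gene Adgre1 was at 4.63 and 8.22. All 6 plasmacytoid DC markers were measured, with 1 past 2-fold towards CD8+ DCs and 2 towards CD8- DCs (differences from -4.53 to 2.09). Of 7 monocyte and macrophage markers 6 were measured, with 1 past 2-fold in each direction (-3.59 to 1.39). The part of other cell types in the differences below was not tested.

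Of the 66 genes, 53 were measured, 48 of them on both arrays and 5 (Arpin, Myo1e, Myo6, Myo7a and Myo19) on 1 array. Most of the machinery was nearly equal in the subsets. Among the 53, 37 (69.8%) differed by less than 0.5 on the log2 scale, against 75.4% of all 11404 measured genes. Their median difference was -0.06, against 0.03 for all measured genes, with 23 genes higher in CD8+ DCs and 30 higher in CD8- DCs. At 2-fold, 4 genes were higher in CD8+ DCs (Arpin, Fmnl2, Myo9a and Myo6), where the background over all measured genes was 3.55%. The same number was higher in CD8- DCs (Fscn1, Diaph3, Myo5a and Myo1e), where the background was 5.97%. Each count is 7.55% of the 53, but a gene measured on 1 array had to differ. Over the 48 genes above the floor on both arrays, 2 passed 2-fold towards CD8+ DCs, against a background of 3.17%, and 3 towards CD8- DCs, against 4.83%. These shares, 4.17% and 6.25% of the 48, lie near the background and mark nothing particular to this set. Nearest the threshold, Myo6 (1.05), Myo5a (-1.09) and Diaph3 (-1.11) lay just inside it, and Tpm2 (0.96), Myo18a (0.90) and Evl (0.74) just outside.

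**Figure D1:**
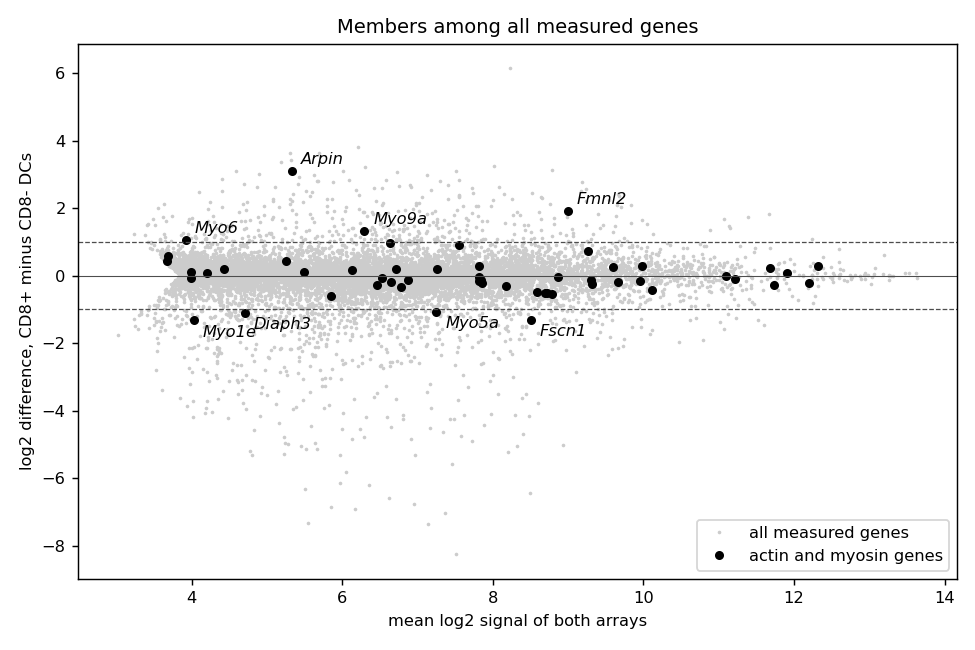
Log2 difference (CD8+ minus CD8- DCs, vertical axis) against the mean log2 signal of both arrays (horizontal axis) for all 11404 measured genes (grey) and the 53 measured actin and myosin genes (black), 1 array per population. Dashed lines mark 2-fold. The 8 named genes lie past 2-fold, 4 on each side, and 37 of the 53 lie within 0.5 of 0.

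The subunits of the Arp2/3 complex, which starts branches on existing filaments, were at nearly the same level in both subsets, while the gene of their inhibitor Arpin was not. All 6 analysed subunits were above the floor on both arrays and differed by -0.16 to 0.29. Actr3, the actin-related subunit Arp3, was at 11.79 in CD8+ and 11.58 in CD8- DCs. Arpc2, a core scaffold subunit, was at 12.46 and 12.17. The latter's other probe set, at 7.36 and 6.31, gave a larger difference of 1.05. Arpc5 was at 11.09 and 11.10, and its paralogue Arpc5l, which can take its place in the complex, at 9.24 and 9.36. Arpc4 (9.88 and 10.04) and Arpc1a (7.95 and 7.68) differed as little. No subunit reached 2-fold by the probe set that stood for it.

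Arpin, a protein that binds the complex and keeps it inactive, gave a signal of 6.88 in CD8+ DCs, against 3.78 in CD8- DCs, which is under the floor. With the floor in place of the CD8- value, CD8+ DCs had at least 8.18-fold more. This was the largest difference among the 53 genes and the 1 that passed 4-fold. Arpin has 1 probe set on the array, so no other probe set bears on it.

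The genes of the proteins that activate the complex, and of the WIP family, showed small differences, mostly in the other direction. Was, the Wiskott-Aldrich syndrome protein of blood cells, was at 8.02 in CD8+ and 8.32 in CD8- DCs. Its broadly expressed relative Wasl, which encodes N-WASP, was at 6.48 and 6.56. Wipf1, whose product WIP binds WASP and protects it from degradation, was at 8.51 and 9.05, and both of its probe sets were lower in CD8+ DCs (-0.54 and -0.49). Wasf2, the WAVE protein of blood cells, was at 9.57 and 9.76, while Wasf1 and Wasf3 were below the floor on both arrays. Wipf2 (6.21 and 6.05) and Wipf3 (3.96 and 4.02, close to the floor) completed the group. Of the 6 measured genes, 5 were lower in CD8+ DCs and none reached 2-fold. Among the 5, Wasl (-0.07) and Wipf3 (-0.06) were nearly equal in the subsets.

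Among the formins, which stay on the growing end of a filament and lengthen it, the subsets differed by gene. Fmnl2, a formin of lamellipodia and filopodia that acts under Cdc42, was at 9.95 in CD8+ and 8.04 in CD8- DCs. It was 3.78-fold higher in CD8+ DCs, from its 1 probe set, with both values far above the floor. Diaph3 (mDia2 protein), known for its role in filopodia and in cell division, was at 4.15 and 5.26 and so 2.16-fold higher in CD8- DCs, with the CD8+ value close to the floor. Diaph1, a formin of leukocytes, was at 8.43 and 8.94, and its 3 probe sets differed by -0.66 to -0.16. Diaph2 (6.61 and 6.95) was also lower in CD8+ DCs, whereas Fmnl1 was at 5.54 and 5.45. All 3 Diaph genes were thus higher in CD8- DCs and both Fmnl genes higher in CD8+ DCs, although 3 of these 5 differences were under 2-fold.

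Of the Ena/VASP genes, whose products speed filament growth and delay capping, Evl was at 9.63 in CD8+ and 8.89 in CD8- DCs. Its 3 measured probe sets were all higher in CD8+ DCs, by 0.54 to 0.74. Vasp was at 8.85 and 8.89. Enah was below the floor on both arrays in all of its 6 probe sets. Within this family the difference thus lay in Evl, and it stayed under 2-fold.

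Fscn1 encodes fascin, which packs filaments into tight parallel bundles and is known as a marker of mature DCs. It was at 7.85 in CD8+ and 9.15 in CD8- DCs, 2.47-fold higher in CD8- DCs. Its 4 probe sets did not give the same result. The others differed by -0.74 (4.06 and 4.80), -0.10 (6.20 and 6.31) and 0.13 (4.45 and 4.32), and their mean with the first was -0.50. Lsp1, a leukocyte protein that binds the sides of filaments, was at 11.60 and 11.88.

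**Figure D2:**
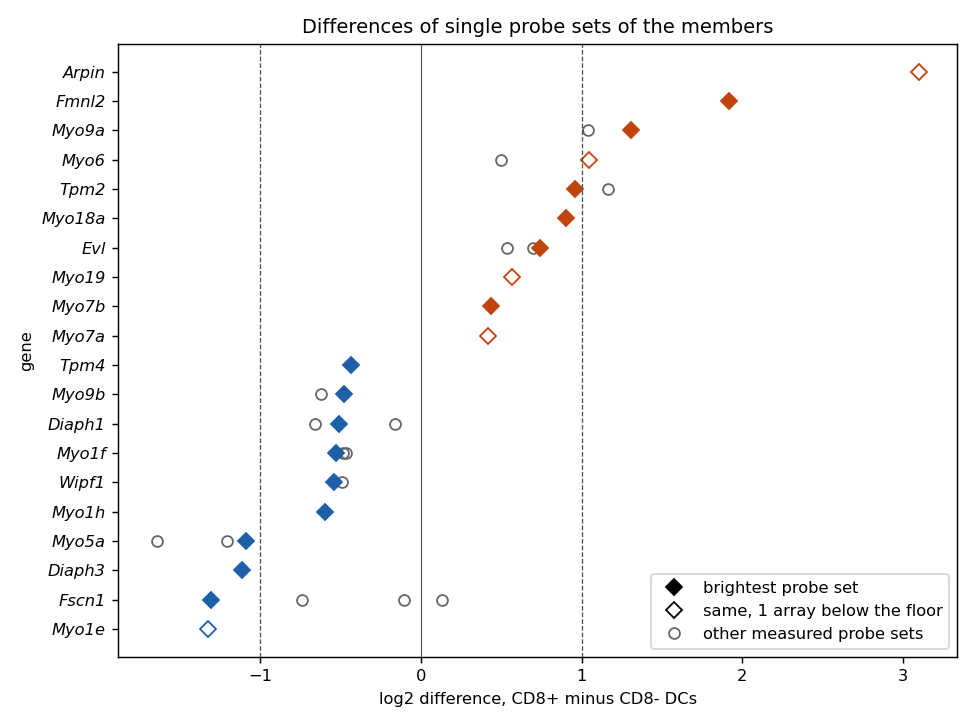
Log2 difference (CD8+ minus CD8- DCs, horizontal axis) of every measured probe set of the actin and myosin genes that differed by 0.4 or more (vertical axis, by gene), 1 array per population. Diamonds are the probe sets that stood for a gene, open where 1 array was below the floor, and circles are the others. The 3 Myo5a probe sets all lie past 2-fold, whereas those of Fscn1 spread from -1.30 to 0.13.

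Genes of filament turnover differed little. Coro1a, the coronin of leukocytes, was at 12.08 in CD8+ and 12.31 in CD8- DCs. Coro1b (9.72 and 9.46), which acts on branches at the leading edge, and Coro7 (10.12 and 9.83), a coronin of the Golgi, were slightly higher in CD8+ DCs, and all 6 probe sets of Coro7 had that direction (0.27 to 0.44). Coro1c (7.78 and 7.91) and Coro2a (7.79 and 7.83) were nearly equal, and Coro2b and Coro6 were below the floor. The main cofilin gene Cfl1 was at 11.95 and 11.86, and the muscle-type gene Cfl2 at 6.32 and 6.60. By the probe sets that stood for them, none of the 7 measured coronin and cofilin genes differed by more than 0.28, although another Cfl2 probe set differed by -0.88.

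The tropomyosins lie along filaments and decide which myosins and severing proteins can bind. Tpm3 (11.16 and 11.27) and Tpm1 (6.82 and 6.94) were nearly equal in the subsets. Tpm4 was at 9.90 in CD8+ and 10.34 in CD8- DCs. Tpm2 alone of the 4 was higher in CD8+ DCs, at 7.11 and 6.15, a 1.95-fold difference, and its other measured probe set differed by 1.16. Tpm2 is also expressed in muscle and stroma. Of the 9 stroma and muscle markers, 6 were above the floor in CD8+ DCs, where all 9 ranged from 2.36 to 5.73. In CD8- DCs 5 were, and all 9 ranged from 2.22 to 6.88. The collagen genes Col1a1, Col1a2 and Col3a1 were below the floor on both arrays, and Acta2, smooth muscle actin, was at 5.73 and 5.33. Of the 6 measured markers, 5 were higher in CD8+ DCs, as Tpm2 was. Among all 11404 measured genes, 5999 were higher in CD8+ DCs. The 5 markers were Des, Acta1, Acta2, Tagln and Ckm, with differences from 0.22 to 0.59. The other marker, Pecam1, was lower in CD8+ DCs, at 5.35 and 6.88. The part of muscle and stroma in the Tpm2 difference was not tested.

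The 16 measured myosins varied more than the other genes. Of the 16, 8 differed by less than 0.5, against 29 of the 37 other measured genes, and their median absolute difference was 0.50, against 0.22. Because 4 of the 16 were measured on 1 array only, against 1 of the 37, the comparison is not on equal terms. Class I myosins link actin to membranes. All 5 measured members of the class were lower in CD8+ DCs, as were 5113 of all 11404 measured genes. Myo1f, a long-tailed class I myosin of leukocytes, was at 8.45 in CD8+ and 8.98 in CD8- DCs, with 3 probe sets between -0.53 and -0.47. Myo1g, a short-tailed form restricted to blood cells, was at 9.19 and 9.44, Myo1c at 7.74 and 7.89, and Myo1h at 5.55 and 6.14. The 4 probe sets of Myo1c differed by -0.66 to 0.12 and so did not share a direction. Myo1e, the close relative of Myo1f, was at 3.36 and 4.69. With the floor in place of its CD8+ value, CD8- DCs had at least 1.79-fold more. Its other 3 probe sets were below the floor on both arrays.

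The 2 class IX myosin genes differed in opposite directions. Myo9a was at 6.94 in CD8+ and 5.64 in CD8- DCs, 2.47-fold higher in CD8+ DCs, and its other probe set differed by 1.04. Myo9b, the form known from leukocytes and their migration, was at 8.35 and 8.82, with differences of -0.62 and -0.47 in its 2 measured probe sets. Both measured probe sets of each gene thus kept to the direction of that gene.

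The transport myosins also differed in opposite directions. Myo5a, which carries vesicles, melanosomes included, towards the plus end of filaments, was at 6.70 in CD8+ and 7.79 in CD8- DCs, 2.12-fold higher in CD8- DCs. Its 3 probe sets differed by -1.64 to -1.09, all past 2-fold. Pigment cells also express Myo5a. Of the 6 melanoma markers, Tyr (2.35 and 2.49), Tyrp1 (2.75 and 2.47), Dct (3.44 and 3.23) and Mlana (2.66 on both) were below the floor, while Mitf was at 4.69 and 5.08 and Pmel at 4.40 and 4.30. Their part in the Myo5a difference was not tested. Myo6, which moves towards the minus end and takes part in endocytosis, was at 4.44 and 3.40, or at least 1.51-fold apart with the floor, and its other measured probe set differed by 0.50. Myo5b and Myo5c were below the floor.

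Of the remaining myosins, Myo18a was at 8.0 in CD8+ and 7.10 in CD8- DCs, 1.87-fold higher in CD8+ DCs. It encodes a myosin with a PDZ domain that lacks motor activity of its own and joins filaments of other myosins. Myo7b was at 5.47 and 5.03. Myo7a (3.87 and 3.45), Myo19 (3.97 and 3.40), Myo15 (4.04 and 3.94), Myo10 (4.23 and 4.16) and Myo15b (4.52 and 4.33) lay close to the floor. Myo1a, Myo1d, Myo3a, Myo3b, Myo16 and Myo18b were below it on both arrays. The 4 actin-related proteins outside the Arp2/3 complex differed by -0.22 to 0.19. They were Actr1a (7.74 and 7.96), which forms the filament of dynactin, and the chromatin remodelling subunits Actr5, Actr6 and Actr8.

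**Figure D3:**
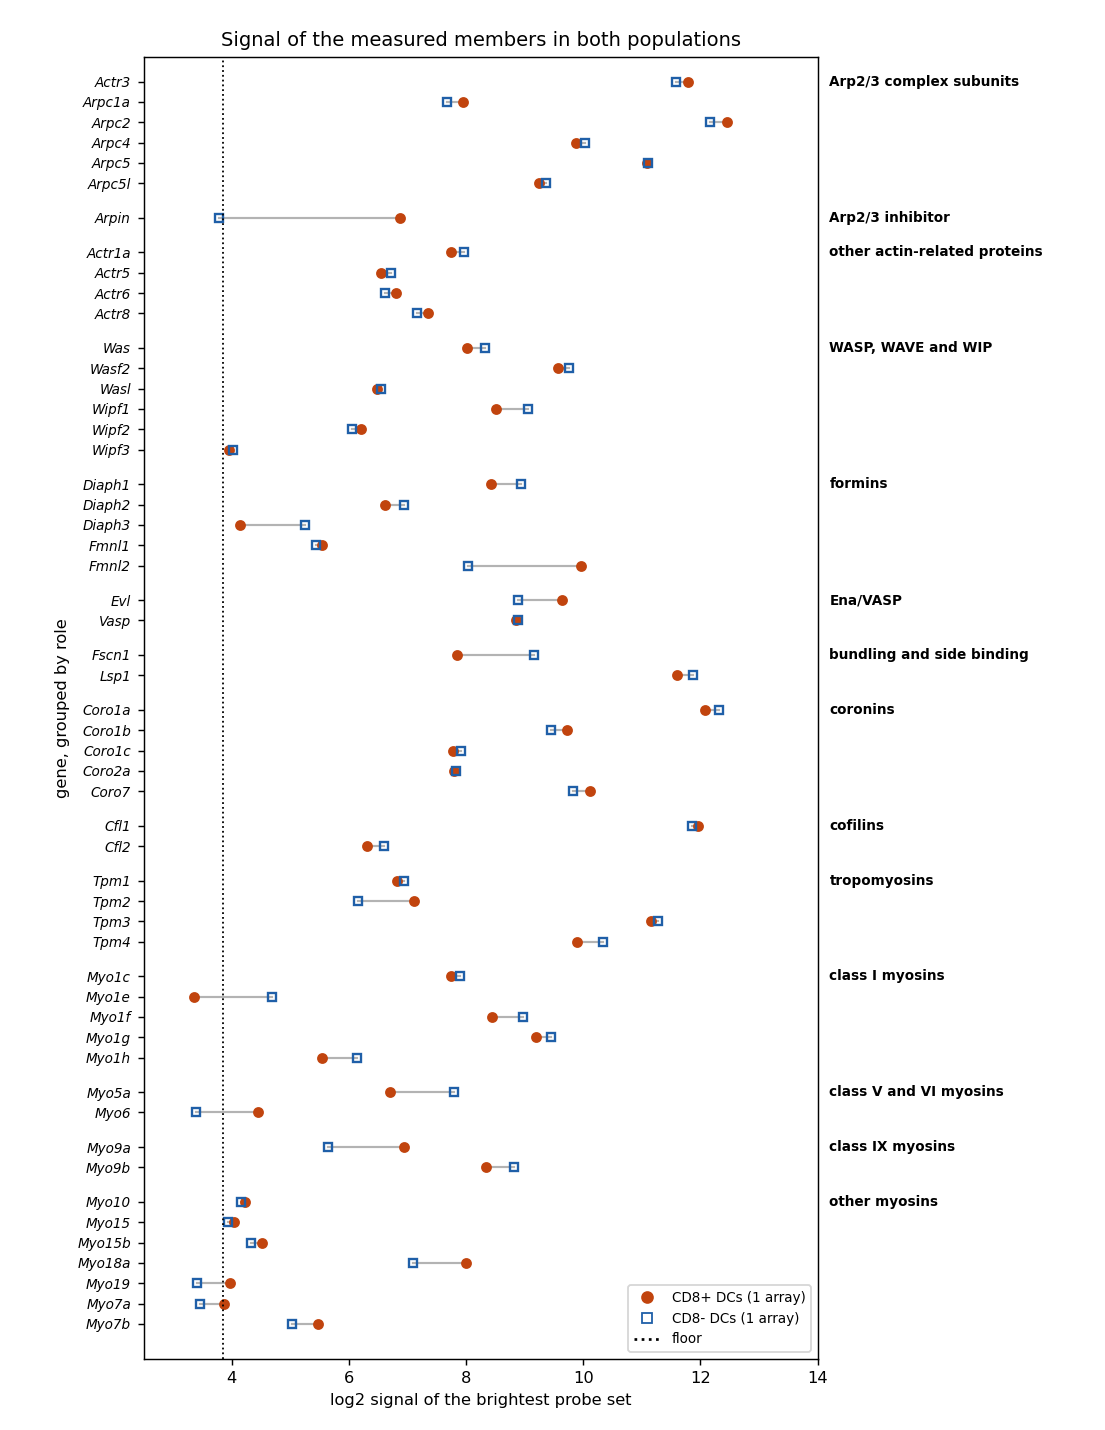
Log2 signal (horizontal axis) of the 53 measured actin and myosin genes (vertical axis, grouped by role) in CD8+ DCs (filled circles) and CD8- DCs (open squares), 1 array each, with the floor of 3.85 as a dotted line. The symbols of Arp2/3 subunits, coronins and cofilins nearly coincide, while those of Arpin, Fmnl2, Fscn1 and several myosins lie apart.

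Over all the genes, 26 had several measured probe sets, 73 in total. In 21 of the 26 (80.8%) all had the same sign, against 67.1% of the 5183 such genes on the array. Within genes, the differences of the probe sets had a pooled SD of 0.27, against 0.30. The probe sets of a gene share the RNA and the array and are not replicates. The 5 genes whose probe sets lay on both sides of 0 were Fscn1, Arpc5l, Myo1c, Tpm1 and Coro1c.

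The promoters of 4 genes with large differences are shown so that the genes can be compared at sequence level. Arpin and Fmnl2 differed most towards CD8+ DCs. Fscn1 differed most towards CD8- DCs among genes above the floor on both arrays, and Myo5a was past 2-fold in every probe set. The sequences are those of RefSeq on GRCm38.p6, from 250 bases before to 50 bases after the annotated start, and 56 of the 66 genes matched an entry. They lie at chr7:79935215-79935514 on the minus strand (Arpin), chr2:52857618-52857917 on the plus strand (Fmnl2), chr5:142960105-142960404 on the plus strand (Fscn1) and chr9:75070956-75071255 on the plus strand (Myo5a). Capitals mark matches on either strand to the TATA box (TATAAA), the cyclic AMP response element (TGACGTCA), the GC box (GGGCGG) and the AP-1 site (TGANTCA). No match overlaps another here.
Arpin: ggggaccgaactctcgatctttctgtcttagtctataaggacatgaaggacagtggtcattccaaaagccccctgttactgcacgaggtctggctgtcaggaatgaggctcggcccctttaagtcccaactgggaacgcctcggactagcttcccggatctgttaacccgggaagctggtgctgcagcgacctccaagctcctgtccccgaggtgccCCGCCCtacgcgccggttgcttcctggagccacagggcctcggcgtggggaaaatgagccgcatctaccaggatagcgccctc
Fmnl2: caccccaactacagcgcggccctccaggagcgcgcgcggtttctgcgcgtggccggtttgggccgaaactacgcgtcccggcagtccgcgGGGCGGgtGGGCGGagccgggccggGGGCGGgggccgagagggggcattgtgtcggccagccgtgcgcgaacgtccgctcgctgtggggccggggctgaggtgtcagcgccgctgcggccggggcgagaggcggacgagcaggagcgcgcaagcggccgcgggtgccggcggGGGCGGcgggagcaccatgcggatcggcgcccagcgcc
Fscn1: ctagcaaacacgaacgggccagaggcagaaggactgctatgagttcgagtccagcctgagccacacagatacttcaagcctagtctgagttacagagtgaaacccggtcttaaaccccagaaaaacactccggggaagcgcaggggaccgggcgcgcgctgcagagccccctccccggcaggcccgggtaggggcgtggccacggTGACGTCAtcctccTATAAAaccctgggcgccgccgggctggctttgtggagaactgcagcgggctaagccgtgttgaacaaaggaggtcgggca
Myo5a: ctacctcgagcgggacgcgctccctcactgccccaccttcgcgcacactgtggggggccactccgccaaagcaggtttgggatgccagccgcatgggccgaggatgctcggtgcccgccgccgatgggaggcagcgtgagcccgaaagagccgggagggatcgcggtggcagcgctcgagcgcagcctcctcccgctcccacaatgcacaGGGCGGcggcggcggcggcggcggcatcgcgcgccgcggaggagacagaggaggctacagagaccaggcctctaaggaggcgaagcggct

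The promoters of Fmnl2, Arpin and Myo5a held GC boxes, with 4 matches in Fmnl2 and 1 each in Arpin and Myo5a. That of Fscn1 held a cyclic AMP response element and, just after it, a TATA box. Among all 32851 promoters in the table, 35.7% held a GC box, 13.6% the TATA box and 1.79% the cyclic AMP response element. The AP-1 site occurred in 7.81% of all promoters and in none of these 4 windows. Over the 70 promoters of the 56 matched genes, 44 held a GC box, 3 a TATA box, 3 an AP-1 site and 1, that of Fscn1, the cyclic AMP response element. These are matches of letters and do not show that a factor binds there. The base composition also differed, at 60.0% G and C in Arpin, 61.7% in Fscn1, 72.0% in Myo5a and 78.7% in Fmnl2, with a median of 52.7% over all promoters.

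The genes that feed into and act beside this machinery were followed in 6 further lists of 117 genes, of which 109 had a single-gene probe set and 93 were measured. Past 2-fold, 7 of the 93 (7.53%) favoured CD8+ DCs and 11 (11.8%) favoured CD8- DCs, against 3.55% and 5.97% of all measured genes, and the median difference was 0.02. Above the floor on both arrays, 7 of 87 (8.05%) and 8 (9.20%) passed, against 3.17% and 4.83%. The lists were chosen with earlier results known, and these shares are a description. Actin itself was nearly equal, with Actb at 13.66 in CD8+ and 13.58 in CD8- DCs and Actg1 at 13.19 and 12.97. Saturation could compress differences at such signals and was not tested. Of 9 measured actins and monomer-binding genes, the profilin gene Pfn2 passed 2-fold (2.80 and 3.85), at the floor.

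The list of WAVE and WASP partners differed in both directions. It also holds genes of cell adhesion, such as Vcl, Tln1 and Zyx, so its counts do not stand for signals to the Arp2/3 complex alone. Past 2-fold, 3 of the 24 measured favoured CD8+ DCs and 3 favoured CD8- DCs (median 0.12). Each count is 12.5% of the list, against 3.55% and 5.97% of all measured genes. Fnbp1l, which encodes the membrane-bending WASP activator Toca-1, was at 6.55 in CD8+ and 4.13 in CD8- DCs, 5.35-fold higher in CD8+ DCs. Its relative Fnbp1 was at 10.22 and 8.71, 2.85-fold higher, with 3 probe sets between 1.02 and 1.51. In favour of CD8- DCs, Abi3, a subunit of the WAVE complex, was at 5.20 and 7.84, a 6.23-fold difference. Fyb, the adaptor ADAP of T cells and myeloid cells, was at 8.09 and 9.49. The others past 2-fold were Nck2 (7.78 and 6.46) towards CD8+ DCs and Vcl (6.64 and 7.70) towards CD8- DCs. The other measured WAVE complex genes of the list were under 2-fold by the probe sets that stood for them. They were Nckap1l (9.78 and 9.65), Abi1 (9.58 and 9.61), Abi2 (7.08 and 6.79), Brk1 (10.25 and 9.93) and Cyfip2 (8.20 and 7.64). The 3 measured probe sets of Cyfip2 differed by 0.56 to 1.07.

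Among genes that cap, sever and cross-link filaments, 3 of 25 measured favoured CD8+ DCs by 2-fold or more and 4 favoured CD8- DCs (median -0.02). These are 12% and 16% of the list, against 3.55% and 5.97% of all measured genes. The 4 became 1 with the probe sets of a gene averaged and 2 without the _x_at and _s_at types. Without these types the 3 towards CD8+ DCs became 2, as the 1 measured probe set of Aif1 is of the _s_at type. Among the 4, Capg, a capping protein, was at 2.76 and 3.88, or at least 1.03-fold apart with the floor. Dbn1, the side-binding protein drebrin, was at 8.72 in CD8+ and 6.38 in CD8- DCs, 5.09-fold higher in CD8+ DCs. Actn1, the cross-linker α-actinin-1, was at 9.27 and 7.38 (3 probe sets between 1.13 and 1.89). Aif1, which encodes the bundling protein Iba1, was at 10.80 and 9.15. Svil, the membrane linker supervillin, was at 5.41 and 6.72, although its other probe set differed by -0.24. Add3 was at 7.56 and 8.78, with 4 measured probe sets between -1.33 and 0.14. Marcksl1 was at 7.57 and 8.71, with 4 measured probe sets between -1.14 and -0.97. The leukocyte bundler gene Lcp1, L-plastin, was at 11.81 and 11.93.

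Among the regulators of myosin II and cofilin, 1 of 20 measured genes (5%) was at least 2-fold higher in each population (median 0.00), near the 3.55% and 5.97% of all measured genes. Ssh2, a slingshot phosphatase that activates cofilin, was at 6.87 in CD8+ and 9.14 in CD8- DCs, 4.81-fold higher in CD8- DCs, with probe sets at -2.27 and -2.00. Its relative Ssh1 was at 6.50 and 6.74. The opposing LIM kinase genes, whose products inactivate cofilin, were higher in CD8+ DCs but under 2-fold, with Limk1 at 6.70 and 5.96 and Limk2 at 5.86 and 5.43. Their measured probe sets differed by 0.18 to 0.74 for Limk1 and by 0.43 to 0.60 for Limk2. Ppp1r12b, a subunit of myosin phosphatase, was 2.01-fold higher in CD8+ DCs, with probe sets from -0.01 to 1.01. Of 12 myosin II heavy chain genes with a probe set, 9 were below the floor on both arrays, and Myh9, the non-muscle form of blood cells, was at 11.13 and 11.43.

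**Figure D4:**
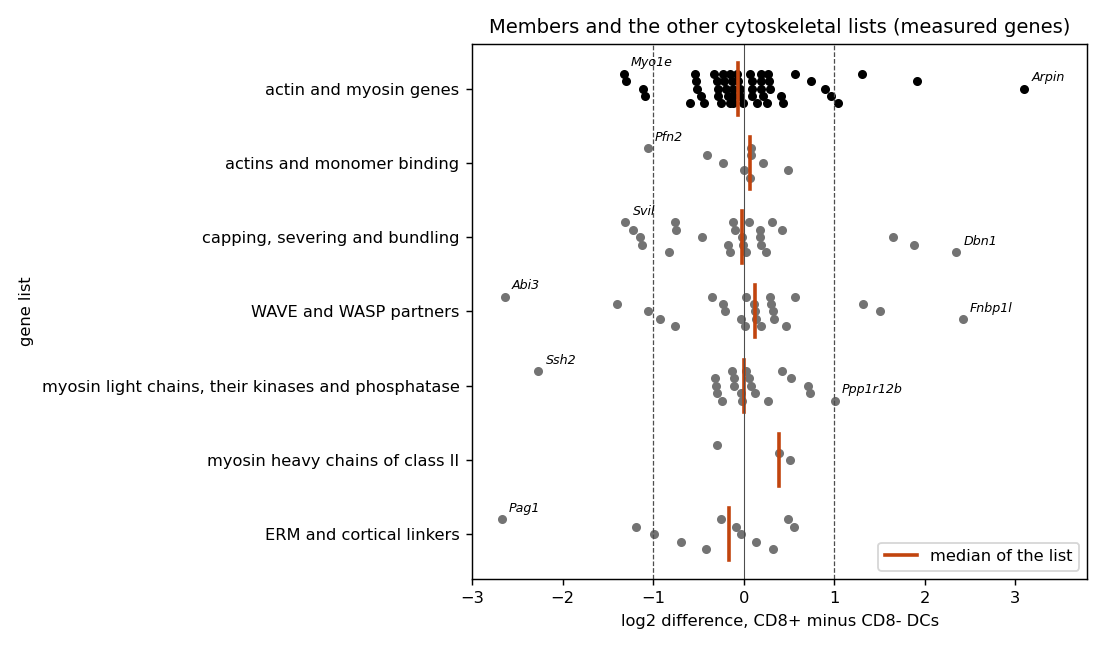
Log2 difference (CD8+ minus CD8- DCs, horizontal axis) of each measured gene in the actin and myosin set and in 6 further cytoskeletal lists (vertical axis), 1 array per population, with the median of each list as a bar and 2-fold as dashed lines. The medians of the WAVE and WASP partners and of the ERM list are at 0.12 and -0.16, and Arpin, Fnbp1l and Dbn1 lie farthest towards CD8+ DCs.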

How the data were processed

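Total RNA of 2 sorted populations was labelled as biotinylated cRNA and hybridised to 1 array each, per the labels. The deposited values are log2 signals of 45101 probe sets, made by the authors with RMA, per the submitters' processing notes. The method subtracts background, forces arrays onto 1 distribution and summarises probes by median polish, which hides a global shift. Which arrays were normalised together is not given in the sources used here.

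Names came from the platform annotation, and symbols were updated by gene identifier to RefSeq on GRCm38.p6 (34754 of 34958 single-gene probe sets matched). Probe sets with several genes (932) or not listed (9211) were left out. Differences, counts and medians were computed in Python 3.11.15 with numpy 2.4.6 and pandas 2.3.3. The calling step was checked on simulated data with planted differences well past 2-fold, in bright genes and with little noise. That check does not bear on differences near 2-fold or near the floor. Every analysed member was described, with the 3 nearest the threshold on each side. Up to 4 genes per further list were named by size of difference. Other list genes (Actb, Actg1, Lcp1, Capg, the WAVE subunits, Ssh1, Limk2, Myh9 and the pigment, collagen and other markers) were chosen after their values were seen. So were Nck2, Vcl, Add3 and Marcksl1. The members and lists were chosen with earlier results of these data known, and 1 further list is not reported here. With 1 array per population there was no test. Alternatives covered centring, a lowess trend (statsmodels 0.14.6), the floor, the choice of probe set and the threshold.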

Additional observations from a re-analysis of the deposited data

How the results depend on the processing

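Across the alternatives no gene past 2-fold changed sign. Arpin, Fmnl2 and Myo9a were past 2-fold towards CD8+ DCs under each alternative that kept that threshold. For Arpin and Fmnl2, with 1 probe set each, the settings on the choice of probe set could not change the difference. Removing or raising the floor only changes which genes are kept, so it could not change a difference either. Counts moved by over 1.5 times in some. The count higher in CD8- DCs was 2 in place of 4 with the floor at the 75th percentile (Fscn1 and Myo5a) and 2 with all probe sets of a gene averaged (Diaph3 and Myo5a, with Fscn1 at -0.50). Over all genes kept by these settings, 7.37% and 5.37% passed towards CD8- DCs. At 1.5-fold, 7 of the 53 genes passed towards CD8+ DCs and 5 towards CD8- DCs, against 8.49% and 11.5% of all measured genes. At 4-fold the counts were 1 and 0, against 0.86% and 2.10%. Subtracting the lowess trend left out Myo6, and setting values below the floor to it left 3 genes on each side, without Myo6 and Myo1e. With values set to the floor, 3.25% of all measured genes passed towards CD8+ DCs and 5.55% towards CD8- DCs. The median difference ranged from -0.12 to 0.01. Centring the arrays or omitting the cross-hybridising probe set types (_x_at and _s_at) gave the same 8 genes. In the further lists, Ppp1r12b passed 2-fold by little, and its list had 0 genes higher in CD8+ DCs after centring, after subtracting the lowess trend, with the floor at the 75th percentile and with averaged probe sets. Towards CD8- DCs, the 1 gene at the floor among actins and monomer-binding genes was lost with the higher floor, with values set to the floor and with averaged probe sets. Of the 12 counts of the further lists, 4 moved by over 1.5 times with averaged probe sets, 3 with the higher floor, 2 with values set to the floor, 1 each with centring, the lowess trend and without the _x_at and _s_at types, 4 at 1.5-fold and 7 at 4-fold. No paired analysis was possible because each population has 1 array. Signals near background could compress the differences of dim genes, among them most of the myosins outside classes I, V and IX. Such compression was not tested.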

Other observations

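The list of proteins that tie actin to the cell cortex was not described above. Of its 12 measured genes, 2 passed 2-fold (16.7%, against 5.97% of all measured genes), both higher in CD8- DCs, and the median difference was -0.16. The 2 became 0 with the probe sets of a gene averaged, 1 with the floor at the 75th percentile or with values set to the floor, and 3 after centring or subtracting the lowess trend. Pag1, a raft adaptor that recruits the kinase Csk, was at 4.87 in CD8+ and 7.54 in CD8- DCs, a 6.38-fold difference, but its 3 measured probe sets ran from -2.67 to 0.51. Epb41l3, a linker of the band 4.1 family, was at 3.48 and 4.67, or at least 1.77-fold apart with the floor. The ezrin-radixin-moesin kinase gene Stk10 was at 7.87 and 8.86, and the moesin gene Msn, the main member of its family in leukocytes, at 9.73 and 10.41 with probe sets at -0.87 and -0.69.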
